A study of Mus musculus with 10 samples.

Results

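The regions described here are the 1129 untreated H3K4me3 peaks of under 4 kb that also overlapped, by at least 1 bp each, an H3K27me3 peak and an H3K79me2 peak of untreated cells. They made up 2.94% of the 38421 untreated H3K4me3 peaks and 3.07% of the 36719 under 4 kb. They were 10.6% of the 10612 such peaks that carried H3K27me3 and 8.59% of the 13145 that carried H3K79me2. Requiring an overlap of 50% of the shorter peak left 624 of them by the same rule, and a peak score of at least 100 in each list left 676.

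These regions were thus chosen by the untreated H3K4me3, H3K27me3 and H3K79me2 peaks and by H3K4me3 width, so their untreated values of these marks are a description. The study measured 5 chromatin targets in R1E mouse embryonic stem cells, on a mixed C57BL/6X129Sv background and kept for under 20 passages in serum medium with leukemia inhibitory factor. The cells were either untreated or given 0.5 uM Adriamycin for 8 h, a topoisomerase II poison that breaks DNA. The targets were H3K4me3, H3K27me3, H3K79me2, RNA polymerase II (Pol II) and the RNA-binding protein hnRNP L, with 1 library per target and condition. No difference between conditions therefore has a replicate check, no test of treatment was possible, and the intervals below are exact Clopper-Pearson 95% intervals that cover counting error only. They also treat regions as independent, although some share a covering peak.

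H3K4me3 is laid down by SET1 and MLL complexes at gene starts, and H3K27me3 by Polycomb repressive complex 2 at silenced developmental genes. Where both lie on a promoter of an embryonic stem cell it is called bivalent, a state associated with low transcription. H3K79me2 is made by the methyltransferase DOT1L and covers the first part of transcribed genes behind Pol II. A promoter that carries H3K27me3 and H3K79me2 together thus joins a mark of silencing with a mark of elongation. In bulk cells, both marks on the same nucleosomes, on different alleles and in different cells give the same peaks and cannot be told apart, and neither can fewer cells with a mark and less mark per cell.

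The 1129 regions were wide, strong H3K4me3 peaks. Their width had a median of 2217 bp (quartiles 1676 and 2816 bp, range 401 to 3959 bp). The median was 1175 bp in the 9483 H3K4me3 peaks under 4 kb with H3K27me3 but no H3K79me2, 1887 bp in the 12016 with H3K79me2 but no H3K27me3, and 914 bp in the 14091 with neither. A wider peak has more room to overlap others, so these widths describe the choice as well as the regions. Each peak carries the score that the authors' peak caller gave it, taken as 10 times the negative log10 of its p, with 3100 treated as the ceiling. The H3K4me3 score was 3100 or more at 673 of the 1129 (59.6%), against 10.4% of the peaks with H3K27me3 alone, 43.1% of those with H3K79me2 alone and 6.37% of those with neither.

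The other marks were weaker there than at regions that carried only one of them. The strongest overlapping untreated H3K27me3 peak had a median score of 264 (quartiles 101 and 711), against 545 at regions with H3K27me3 alone. The strongest untreated H3K79me2 peak had a median score of 396 (quartiles 136 and 1241), against 1533 at regions with H3K79me2 alone. A score belongs to the whole overlapping peak, which can lie mostly outside the region.

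The limit on width cut through a continuous range of peaks. The widest regions inside it were chr11:102463936-102467894 (3959 bp), with untreated scores of 2176 for H3K27me3, 101 for H3K79me2 and 215 for Pol II, and chr12:112907340-112911290 (3951 bp), with 433, 509 and 2214. The nearest outside were chr4:45540896-45544898 (4003 bp), with 350, 2034 and 860, and chr15:76551918-76555921 (4004 bp), with 357, 105 and 3143. All 4 had an H3K4me3 score of 3100 in both conditions. In all, 139 of the 1702 H3K4me3 peaks of 4 kb or wider carried both marks.

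Most of the regions had no other region of the set within 10 kb, with other H3K4me3 peaks not counted. With neighbours chained over gaps of up to 10 kb, 928 were single, 148 lay in 74 pairs and 53 lay in 16 groups of 3 to 5. The median gap between neighbours was 365 kb. The group of 5 lay at chr10:79438273-79461218, where 4 of the 5 had Pol II in each condition. By share of H3K4me3 peaks under 4 kb, chromosome 8 held the most regions (90 of 1954, 4.61%, 3.72 to 5.63%) and chromosome X the fewest among chromosomes with any (11 of 929, 1.18%, 0.593 to 2.11%). Chromosomes 15 (4.57%), 19 (4.28%) and 11 (4.03%) followed chromosome 8, and the intervals of all 4 overlapped. The interval of chromosome X also overlapped those of several others, among them chromosomes 13 (1.35%, 0.835 to 2.05%) and 14 (1.74%, 1.10 to 2.63%).

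The H3K27me3 and H3K79me2 peaks mostly lay over the same bases and were less often side by side. They shared at least 1 base inside 941 of the 1129 H3K4me3 peaks (83.3%, 81.0 to 85.5%). In 187 (16.6%) they lay side by side without touching, with a median gap of 600 bp (range 11 to 2700 bp), and in 1 they alternated. Where they overlapped, the shared stretch had a median of 743 bp (quartiles 447 and 1115 bp) and took up a median of 37.1% of the H3K4me3 peak. Inside the H3K4me3 peak, all H3K27me3 bases also held H3K79me2 at 422 of the 941 (44.8%), and all H3K79me2 bases also held H3K27me3 at 337 (35.8%).

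The 3 regions with most shared bases differed in what was found after Adriamycin. At chr7:4980830-4984159 all 3330 bases carried H3K4me3 (score 3100), H3K27me3 (1328) and H3K79me2 (310), and after Adriamycin the strongest overlapping peaks had scores of 3100, 1283 and 148. H3K79me2 was then in 2 peaks that covered 2674 of the 3330 bases. Pol II there scored 3100 in both conditions. At chr15:75832366-75835504, 2912 of 3139 bases held the 3 marks, and H3K27me3, H3K79me2 and Pol II each scored 3100 in untreated cells. After Adriamycin, H3K79me2 (2397) and Pol II (3100) were still on that region, but the H3K27me3 peak, of score 2175, ended 1.93 kb short of it. The third, on chromosome 18, shared 2909 of 3950 bases and had no H3K79me2 peak after Adriamycin, with H3K27me3 at 1833 and then 1604.

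The regions with the highest score of the weaker mark included chr15:75832366-75835504, described above. The others had other layouts. At chr10:79438273-79441511, H3K27me3 covered 2973 bases and H3K79me2 1197 bases (both 3100), and after Adriamycin the scores were 2183 and 3100. At chr4:154337661-154339612 the marks were apart, with 455 bases of H3K27me3 (3136) and 1377 of H3K79me2 (3100), and both were found after Adriamycin (2771 and 3100). At chr7:53084786-53086825 only 118 bases were under the H3K27me3 peak of score 3100, so that the edge of a strong domain reached the H3K4me3 peak. At chr7:148652482-148655708, H3K27me3 (2941) covered 524 bases in untreated cells, and its peak after Adriamycin (1559) ended 202 bp outside, while Pol II went from 3100 to 772 and H3K79me2 from 3100 to 1680.

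The marks also had an order along the DNA. The 1057 regions with unequal untreated H3K79me2 in the 2 kb on their sides were turned so that the side with more of it lay to the right, which fixes the H3K79me2 pattern. In untreated cells Pol II then covered most regions at -250 bp from the centre (78.7%), on the side poorer in H3K79me2. H3K27me3 had 2 maxima, one of 58.2% at 850 bp and one of 47.8% at -1250 bp, with a dip to 34.5% at -450 bp between them, and it fell off further out on both sides. After Adriamycin, Pol II again had its maximum at -250 bp (69.97%), and H3K27me3 its maximum at 750 bp (42.3%).

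**Figure D1:**
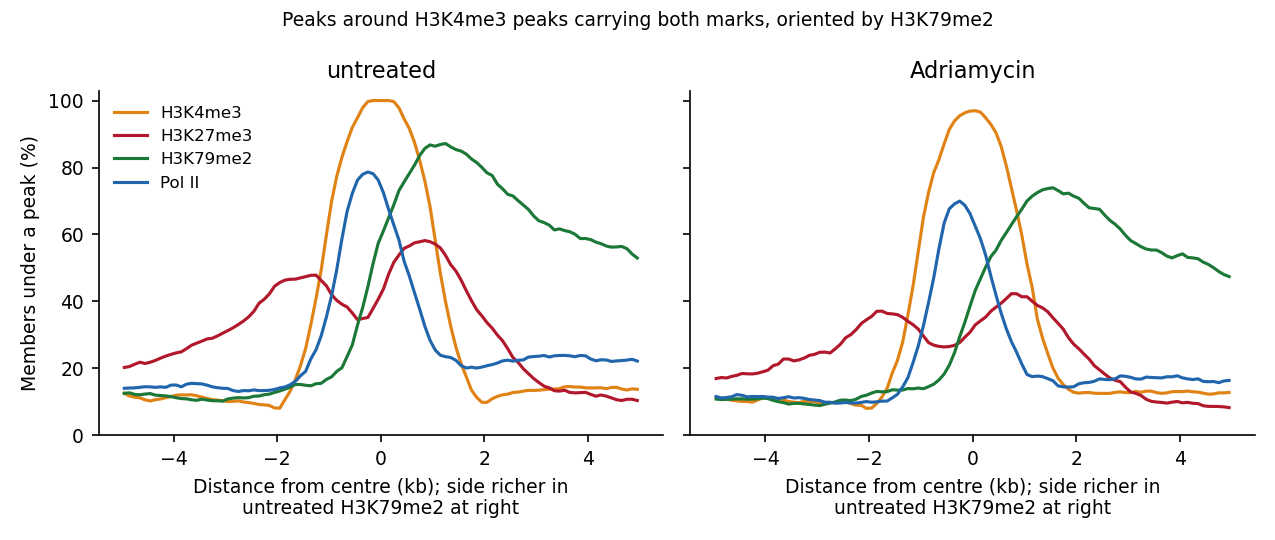
Share of the 1057 oriented regions (vertical axis, percent) under a peak of each target, against distance from the centre of the H3K4me3 peak (horizontal axis, kb), in untreated (left) and Adriamycin-treated cells (right). The side with more untreated H3K79me2 is to the right by construction; Pol II peaks left of the centre, where H3K27me3 dips in both conditions.

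In the 2 kb beyond the edges, by contrast, Pol II covered more of the H3K79me2 side. It covered 21.5% of the bases on that side and 14.4% on the other in untreated cells, and 15.8% and 10.2% after Adriamycin. Untreated Pol II was longer on the H3K79me2 side at 386 regions, longer on the other at 259 and equal at 412. H3K27me3 leaned slightly the opposite way in untreated cells, with 34.2% of the bases on the H3K79me2 side and 41.1% on the other. It was longer on the H3K79me2 side at 454 regions, longer on the other at 515 and equal at 88. At regions with H3K79me2 alone, turned the same way, untreated Pol II covered 22.9% and 18.1%, and H3K27me3 0.588% and 2.19%.

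The domains around the regions were short. After peaks within 3 kb were joined, the H3K27me3 domain at a region had a median of 4173 bp, against 7774 bp at regions with H3K27me3 alone. It ran at least 1 kb past both edges of the H3K4me3 peak at 21.7% of the regions, against 56.9%. The H3K79me2 domain had a median of 8981 bp, against 20229 bp at regions with H3K79me2 alone. It ran at least 1 kb past 1 edge only at 67.1% and past both at 19.6%, against 44.0% and 51.4%.

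Pol II was not used to choose the regions, and most had it. In untreated cells 1015 of the 1129 carried a Pol II peak (89.9%, 88.0 to 91.6%), where 59.6% of all H3K4me3 peaks under 4 kb did. The share was 36.7% at regions with H3K27me3 alone, 80.3% with H3K79me2 alone and 55.0% with neither. Because Pol II was more frequent at wide and strong H3K4me3 peaks, the other classes were also weighted to the H3K4me3 scores and widths of the 1129. So weighted, the shares were 61.1% (standard error 1.08) with H3K27me3 alone, 92.4% (0.189) with H3K79me2 alone and 87.9% (0.660) with neither. At like H3K4me3, the share with both marks was above that with H3K27me3 alone. The weighted share with H3K79me2 alone lay just above the interval for both marks, but inside it with an overlap of 50% of the shorter peak (89.2%, against 87.8%, 85.0 to 90.3%). The weighted share with neither lay at the lower bound, and it passed the value for both marks, within its interval, at equal numbers of top-scoring peaks (85.5% against 85.1%) and at a score of at least 100 (86.6% against 84.9%).

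**Figure D2:**
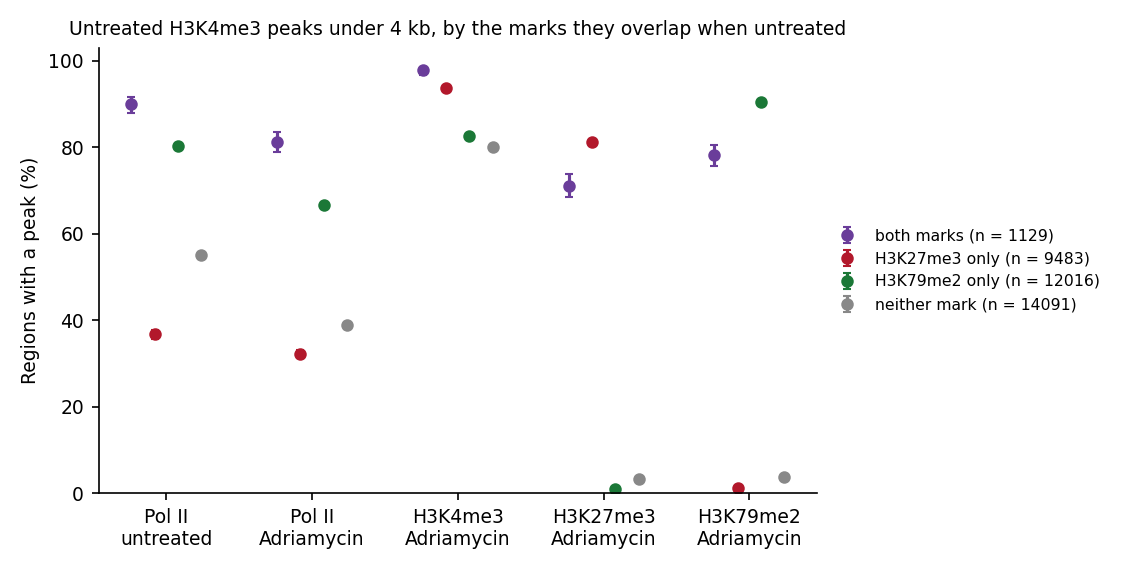
Percentage of H3K4me3 peaks under 4 kb with a peak of each target and condition (vertical axis), for the 1129 with both marks and for those with H3K27me3 only, H3K79me2 only or neither in untreated cells; bars are 95% counting intervals, and the shares are not weighted. Regions with both marks have Pol II at 89.9% and 81.2%, and H3K27me3 and H3K79me2 after Adriamycin at 71.1% and 78.2%.

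In untreated cells the presence of a Pol II peak varied little with the strength of H3K27me3. Across 6 ranges of H3K27me3 score, from 50 up to 3100 and above, the untreated share with Pol II lay between 86.7% and 91.7%. At the 33 regions with an H3K27me3 score of 3100 or more, 29 had Pol II (87.9%, 71.8 to 96.6%). Where the marks lay side by side, 96.3% had Pol II (92.4 to 98.5%), against 88.6% (86.4 to 90.6%) where they overlapped. The side-by-side regions also had weaker H3K27me3 (median score 182, against 279), stronger H3K79me2 (694, against 352) and wider H3K4me3 peaks (2431 bp, against 2161 bp). After Adriamycin the share with Pol II was 84.1% (79.2 to 88.2%) at H3K27me3 scores of 50 to 100. It was 74.7% (67.4 to 81.1%) at 1000 to 3100 and 81.8% (64.5 to 93.0%) at 3100 and above.

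Inside the regions Pol II lay somewhat less on the bases with H3K27me3 than on the others. In untreated cells its peaks covered 51.5% of the bases with H3K27me3 alone, 57.4% of those with H3K79me2 alone, 53.6% of those with both and 64.9% of those with neither. These stretches made up 16.03%, 23.9%, 30.5% and 29.6% of the bases of the regions. After Adriamycin the Pol II coverage was 41.5%, 48.9%, 42.5% and 53.1% in the same order. The stretches were not matched for distance from the centre, and the part of position in these differences was not tested.

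After Adriamycin the H3K4me3 peak was nearly always found again, and H3K27me3 and H3K79me2 were lost more often. H3K4me3 was found at 1104 of the 1129 (97.8%, 96.7 to 98.6%), where 84.9% of all H3K4me3 peaks under 4 kb kept it. Weighted to the untreated H3K4me3 scores of the regions, the other classes came close to this share. They kept H3K4me3 at 98.3% with H3K27me3 alone, 94.8% with H3K79me2 alone and 96.9% with neither. H3K27me3 was found at 803 (71.1%, 68.4 to 73.8%), where 80.1% of all such peaks with untreated H3K27me3 kept it. H3K79me2 was found at 883 (78.2%, 75.7 to 80.6%), where 89.3% of those with untreated H3K79me2 kept it. Where a mark was found in both lists, the median difference in covered bases of a region (Adriamycin minus untreated) was -80 bp for H3K27me3 and -100 bp for H3K79me2. These were -15 bp and -14 bp at regions with H3K27me3 alone and with H3K79me2 alone. All these regions were chosen to carry the mark in untreated cells, which itself favours fewer bases in the other list. Bases were also counted only inside the H3K4me3 peak, so changes beyond its edges were not seen. Untreated domains ran at least 1 kb past both edges more often at regions with H3K27me3 alone (56.9%, against 21.7%). The same held with H3K79me2 alone (51.4%, against 19.6%). The part of this in the difference between classes was not tested.

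Part of the shortfall went with peak score. At untreated H3K27me3 scores of 50 to 100, 37.0% of the 276 regions had H3K27me3 after Adriamycin, and at 1000 to 3100, 95.2% of 166 did. Weighted to the same H3K27me3 scores, regions with H3K27me3 alone kept it at 72.0% (standard error 0.488), inside the interval of the regions with both. Weighted to width as well, they kept it at 76.7% (1.26), above that interval. This did not hold with a score of at least 100 in each list, where regions with both marks kept H3K27me3 at 72.2% (68.6 to 75.5%) and the others at 69.4% when weighted to score and at 73.7% with width. Regions with H3K79me2 alone kept H3K79me2 at 82.2% (0.419) when weighted to score and at 84.0% (0.444) with width, both above the interval of the regions with both marks.

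**Figure D3:**
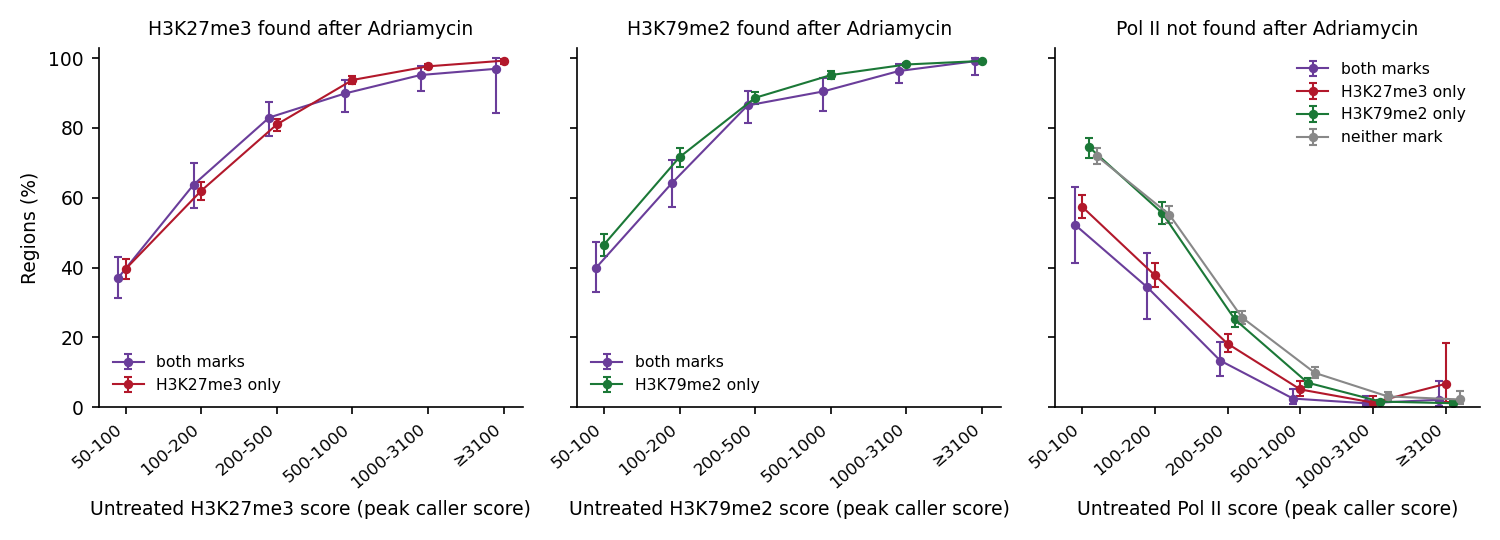
Percentage of regions (vertical axis) by untreated peak score (horizontal axis, 6 ranges) that had H3K27me3 (left) or H3K79me2 (middle) after Adriamycin, or that had Pol II only in untreated cells (right, of those with untreated Pol II); bars are 95% counting intervals. The shares depend on score in every class. At scores of 200 to 500, Pol II is lost from 13.3% (8.95 to 18.8%) of regions with both marks, against 18.2% to 25.7% in the other classes. At 3100 and above it is lost from 2.08%, against 6.67% with H3K27me3 only, 1.09% with H3K79me2 only and 2.16% with neither.

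All 3 marks were found after Adriamycin at 613 of the 1129 (54.3%, 51.3 to 57.2%), where 2.12% of all H3K4me3 peaks under 4 kb carried the 3 marks after Adriamycin. The regions were chosen to carry the 3 marks untreated and supplied 613 of the 780 peaks behind the 2.12%. A gap between these shares thus follows from the choice. H3K4me3 with H3K79me2 was left at 253 (22.4%, 20.01 to 24.96%), H3K4me3 with H3K27me3 at 178 (15.8%, 13.7 to 18.0%) and H3K4me3 alone at 60 (5.31%). The other 25 had no H3K4me3 peak. Of the 941 regions where the marks had overlapped, 445 (47.3%) again had bases under both an H3K27me3 and an H3K79me2 peak, and of the 187 side-by-side regions 17 (9.09%) had gained such bases.

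The fate of one mark went little with that of the other. H3K27me3 was found at 70.4% (67.3 to 73.4%) of the 883 regions that kept H3K79me2 and at 73.6% (67.6 to 78.98%) of the 246 that did not. H3K79me2 was likewise found at 77.5% of the regions that kept H3K27me3 and at 80.1% of those that did not. The outcomes differed in each mark's own untreated score. Regions left with H3K4me3 and H3K79me2 had a median untreated H3K27me3 score of 94.3 and an H3K79me2 score of 759, and regions left with H3K4me3 and H3K27me3 had 570 and 97.6. With all 3 kept, the medians were 392 and 532.

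**Figure D4:**
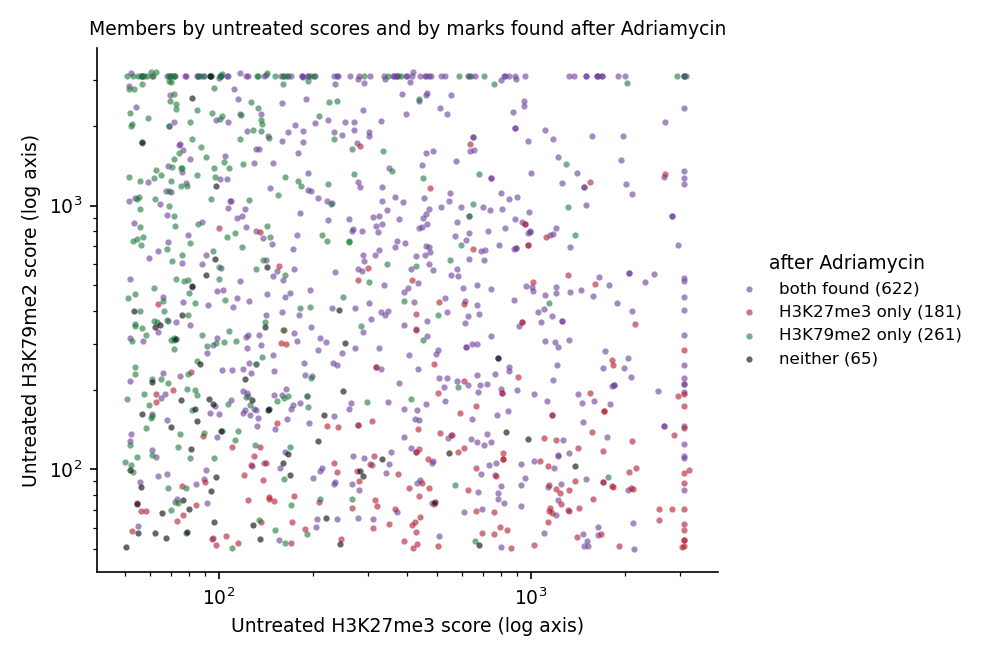
Each of the 1129 regions by its untreated H3K27me3 score (horizontal log axis) and H3K79me2 score (vertical log axis), coloured by the marks found after Adriamycin (622 both, 181 H3K27me3 only, 261 H3K79me2 only, 65 neither). Regions left with H3K79me2 only lie at low H3K27me3 scores, and regions left with H3K27me3 only at low H3K79me2 scores.

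At high H3K27me3 scores the regions kept H3K79me2 less often, and their H3K79me2 was also weaker. H3K79me2 was found after Adriamycin at 80.4% (75.3 to 84.9%) of regions with an H3K27me3 score of 50 to 100 and at 68.1% (60.4 to 75.1%) of those with 1000 to 3100. The median untreated H3K79me2 score was 456 in the first and 213 in the second, and its part in the difference was not tested.

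A mark missing from a region was often still nearby. Of the 326 regions without H3K27me3 after Adriamycin, 189 had a treated H3K27me3 peak within 5 kb and 133 had one within 1 kb. Of the 246 without H3K79me2, 172 had one within 5 kb and 117 within 1 kb. The untreated score had been under 100 at 174 of the 326 and at 117 of the 246, and 500 or more at 27 and 25.

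The strongest H3K27me3 losses with no treated peak within 5 kb were modest in score. The highest, chr5:23978942-23981539, had H3K27me3 at 705 over 1404 bases in untreated cells, and its nearest treated peak lay 19.3 kb away. Its H3K79me2 score was 3097 and then 708, and its Pol II score 59.3 and then 182. At chr1:39534210-39536355, H3K27me3 (413) was lost and H3K79me2 (184 and 132) and Pol II (554 and 104) stayed. At chr2:31114042-31115677, H3K27me3 (332) and H3K79me2 (110) were both lost, and Pol II had no peak in either condition.

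For H3K79me2 the strongest such loss was at chr7:108078807-108082131, where a peak of score 1224 over 1628 bases had no treated counterpart within 22.2 kb. H3K4me3 (3100 in both), H3K27me3 (1552 and 789) and Pol II (2999 and 1043) were found there in both conditions. At chr4:118214871-118217541, H3K79me2 (357) was lost while H3K27me3 (2159 and 1815) and Pol II (622 and 179) stayed. The next was the region on chromosome 18 described above, with H3K79me2 at 248 and Pol II at 456 and then 116.

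Pol II was found at 917 of the 1129 after Adriamycin (81.2%, 78.8 to 83.5%), where 47.5% of all H3K4me3 peaks under 4 kb had it. Weighted to the H3K4me3 scores and widths of the regions, the shares were 52.2% with H3K27me3 alone, 83.5% with H3K79me2 alone and 77.7% with neither. Of the 1015 regions with untreated Pol II, 119 had none afterwards (11.7%, 9.81 to 13.9%), where 25.8% of all such peaks lost it. Weighted to the untreated Pol II scores of the regions, the losses were 14.6% (standard error 0.572) with H3K27me3 alone, 19.3% (0.343) with H3K79me2 alone and 20.4% (0.366) with neither. All 3 lay above the interval of the regions with both marks, and remained so when weighted to width as well (14.9%, 17.8% and 21.2%). At equal numbers of top-scoring peaks in both conditions the loss was 9.06% (7.29 to 11.1%), against 12.2%, 16.3% and 17.5% in the same order. With a score of at least 100 in each list it was 16.6% (13.6 to 19.8%) against 19.9%, 21.6% and 25.7%. With an overlap of 50% of the shorter peak it was 12.6% (9.93 to 15.7%) against 14.9%, 19.5% and 20.96%, so that the value with H3K27me3 alone fell inside the interval there.

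Of the 114 regions without untreated Pol II, 21 had a Pol II peak after Adriamycin (18.4%, 11.8 to 26.8%), where 8.09% of all H3K4me3 peaks under 4 kb without Pol II gained one. The share was 10.05% with H3K27me3 alone, 8.18% with H3K79me2 alone and 6.02% with neither. These shares were weighted neither to H3K4me3 score nor to width, so they do not compare like H3K4me3 peaks. The gained peaks were weak, with a median score of 98.1.

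Pol II loss differed by which mark was kept, together with the strength of Pol II. Pol II was lost from 30 of 150 regions that kept H3K27me3 without H3K79me2 (20.0%, 13.9 to 27.3%), from 64 of 568 that kept both (11.3%, 8.79 to 14.2%) and from 19 of 241 that kept H3K79me2 without H3K27me3 (7.88%, 4.81 to 12.04%). Where neither mark was kept, Pol II was lost from 6 of 56 (10.7%, 4.03 to 21.9%). The median untreated Pol II scores, in the same order, were 458, 740, 866 and 500. Among regions with a Pol II score under 500, the losses were 35.4%, 26.8%, 23.0% and 21.4%, and the counting intervals overlapped. At scores of 500 or more the losses were 2.82%, 1.97%, 1.20% and 0%.

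**Figure D5:**
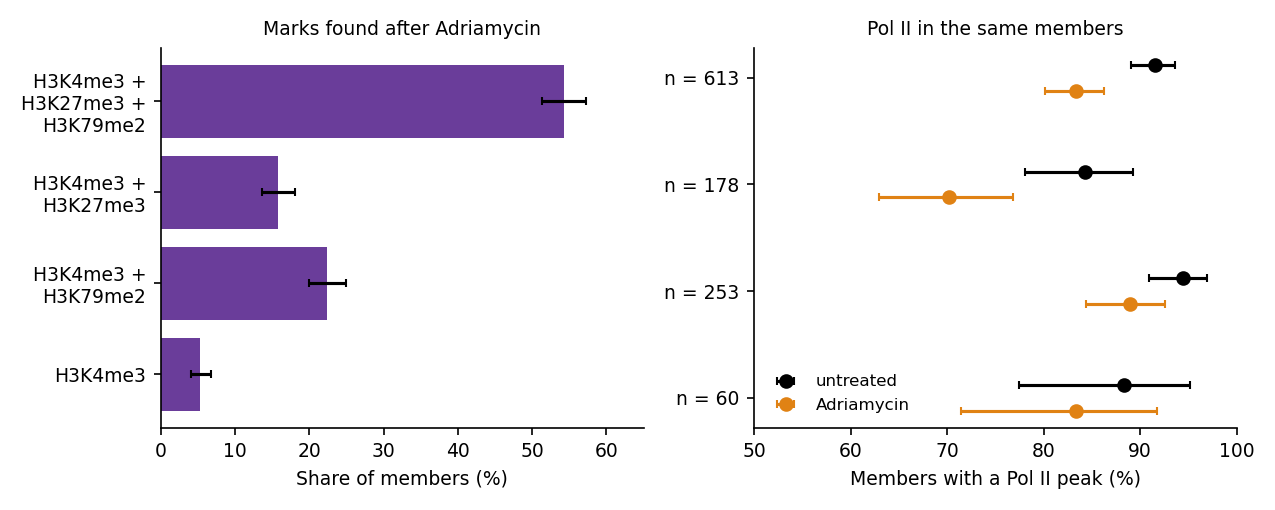
Left, share of the 1129 regions (horizontal axis, percent) by the marks found after Adriamycin, for the 4 combinations with H3K4me3. Right, percentage of the same regions with a Pol II peak in untreated (black) and Adriamycin-treated cells (orange); bars are 95% counting intervals. Pol II went from 84.3% to 70.2% at the 178 regions left with H3K4me3 and H3K27me3, and from 94.5% to 88.9% at the 253 left with H3K4me3 and H3K79me2.

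The strongest Pol II losses with none within 5 kb afterwards kept H3K4me3 and H3K27me3. At chr5:21180137-21182193 a Pol II peak of 871 had no treated peak within 7.22 kb, H3K4me3 went from 1489 to 997 and H3K27me3 from 188 to 86.9, and H3K79me2 (59.1) was lost. At chr4:99316289-99318637 (Pol II 708), H3K4me3 went from 2011 to 1044, H3K27me3 from 102 to 78.9 and H3K79me2 from 239 to 78.8. At chr9:72950002-72952293 (Pol II 679), H3K4me3 went from 3100 to 1746, H3K27me3 from 582 to 238 and H3K79me2 from 541 to 96.1. Scores of different libraries also move with depth, so untreated and treated scores are given side by side only.

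The strongest gains with no Pol II within 5 kb before were weaker. The first and second lay close together, at chr8:90306374-90307427 and chr8:90304492-90305495, under 1 H3K27me3 peak (1499 and then 724) and 1 H3K79me2 peak (3100 in both). Their treated Pol II scores were 103 and 88.3, and their H3K4me3 scores went from 86.2 to 317 and from 115 to 198. At chr2:118741375-118742987 the treated Pol II score was 82.0, H3K4me3 went from 434 to 1549, H3K27me3 from 1653 to 1094 and H3K79me2 from 536 to 458.

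hnRNP L was found at 1 of the 1129 regions (0.0886%, 0.00224 to 0.493%), where 0.158% of all H3K4me3 peaks under 4 kb had it in either condition. This was chr4:145720373-145721677 (1305 bp), with hnRNP L at 174.5 in untreated cells and 60.1 after Adriamycin. It held the 3 histone marks in both conditions (H3K4me3 at 86.4 and 87.2, H3K27me3 at 486 and 184, H3K79me2 at 107 and 123) and Pol II in neither.

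A region chosen in untreated cells can lose a mark but not gain one, so the rule was also run on the Adriamycin lists. It gave 775 regions of 40599 H3K4me3 peaks under 4 kb (1.91%). Of these, 88.9% (86.5 to 91.0%) had H3K27me3 in untreated cells, 89.3% (86.9 to 91.4%) had H3K79me2 and 77.5% (74.4 to 80.4%) had all 3 marks, against 71.1%, 78.2% and 54.3% in the other direction. Marks were thus also missing in part when the conditions changed places, but less often. The treated lists also covered less of the whole genome than the untreated ones. They covered 75.3 against 101.0 Mb for H3K27me3, 130.1 against 138.9 Mb for H3K79me2 and 57.6 against 62.9 Mb for H3K4me3. The part of this in the difference between directions was not tested. At equal numbers of top-scoring peaks the shares with all 3 marks were 52.2% and 79.3%. The 2 sets overlapped at 549 regions, 48.6% of the 1129 and 70.8% of the 775. Pol II was found at 88.9% of the 775 in untreated cells and at 81.0% after Adriamycin.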

How the data were processed

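Each library was used as the peak list that the authors deposited, 1 per target and condition, called separately per library as far as the lists show. Per the submitters' processing notes, CASAVA 1.8.2, MACS 1.4.1 and the build mm9 were named; filters, input libraries and read depth were not given in the sources used here, and how sensitive each list is cannot be stated. The deposited score is taken as 10 times the −log10 of the p-value, with 50 as the lowest value. It was used to describe, rank, bin or filter peaks, and a region takes the score of its strongest overlapping peak. The choice of regions by the weaker mark also set H3K27me3 scores against H3K79me2 scores, which come from different libraries.

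The regions, comparisons and settings were chosen with earlier results of these data known. Lists held 38421 and 41705 (H3K4me3), 97639 and 88365 (H3K27me3), 63053 and 71959 (H3K79me2), 81069 and 59426 (Pol II), and 1120 and 1022 peaks (hnRNP L) in untreated and treated cells. An overlap of 1 bp counted. Other classes were weighted to the score ranges of the regions (edges 50, 100, 200, 500, 1000 and 3100), and to widths in steps of 500 bp where stated. Coordinates are 1-based on mm9.

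Named regions were taken by rule: the 5 with the highest score of the weaker mark, the 3 with most shared bases, the 3 strongest losses of H3K27me3, H3K79me2 and Pol II and gains of Pol II with no peak within 5 kb in the other condition, those with hnRNP L, and 2 on each side of the width limit. No annotation or genome of mm9 was used here, so genes and sequences are not named and the planned gene lists were not run. The 7 alternatives of the closing section were run for each result. Weighting to width, the weighted shares under other settings and the reversed rule under other settings were added after seeing the data. On simulated lists of 3000 peaks, the rule found 495 of 495 planted regions. Scripts ran in Python 3.11.15 with pandas 2.3.3, numpy 2.4.6 and SciPy 1.17.1, and figures were drawn with matplotlib 3.10.9.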

Additional observations from a re-analysis of the deposited data

How the results depend on the processing

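The 10 results were recomputed under 7 alternatives, which gave 69 values. Of these, 50 stayed within the counting interval of the reported value (for the number of regions, within 1.5 times) and 19 did not. Requiring 50% of the shorter peak to overlap left 624 regions, with a shared base at 94.1%, Pol II at 87.8% in untreated and 78.5% in treated cells, and after Adriamycin H3K27me3 at 66.8%, H3K79me2 at 65.4% and all 3 marks at 42.5%. A score of at least 100 left 676 regions, with a shared base at 79.9%, Pol II at 84.9% and 73.4%, Pol II loss at 16.6% and hnRNP L at 0. With equal numbers of top-scoring peaks, untreated Pol II was found at 85.1%, H3K79me2 after Adriamycin at 74.7%, and Pol II loss was 9.06%. Where the marks had to share a base, H3K27me3 was found after Adriamycin at 74.1%. Merging peaks within 1 kb gave Pol II at 91.7% and 83.8%. No value left its interval with no width limit or with numbered chromosomes only. The share with a common base is fixed at all regions where that base is required and was not counted there.

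Leaving out a replicate was not possible with 1 library per target and condition. No paired analysis was possible because each condition holds 1 library per target and no test was made. Depth is unknown, so an absent peak means only that none passed the authors' threshold.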
